A study of Zea mays with 6 samples.

Results

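The copper miRNAs of maize are the families miR397, miR398, miR408 and miR528. Their guide strands, the strands of the hairpin duplex that are loaded into the silencing complex, were taken by family number and arm, so that the 5p sequences of miR398 and miR408 and any 3p sequence of miR528 were set aside as passenger strands. By this rule 4 of the 161 known miRNA sequences listed in the ovaries were members. The miR408 family had 2 of them, miR398 and miR528 had 1 each, and miR397 had 0. In the degradome, which reads the 5′ ends of cut mRNAs, 2 of 471 transcript rows belonged to these families.

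Ovaries came from the maize inbred line Yu-A474, which bears ovaries with incompletely fused carpels (IFC) and ovaries with completely fused carpels (CFC) on the same ear. The CFC ovaries are the wild-type ovaries of the sample labels. Plants were grown without stress, no further treatment is given in the labels, ears were bagged against pollination, and at silking IFC ovaries were taken next to CFC ovaries of the same ear. There were 4 small RNA libraries, with 2 biological replicates of each phenotype from 2 ear rows, and 2 degradome libraries, 1 for each phenotype and each a mix of its 2 biological samples. All samples belong to 1 inbred line, and in whole ovaries fewer cells of a type and less RNA per cell cannot be told apart.

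In plants, copper miRNAs cut the mRNAs of copper proteins that the cell can spare, among them laccases, the Cu/Zn superoxide dismutases and the plantacyanins. In Arabidopsis the factor SPL7 switches on miR397, miR398 and miR408 when copper is scarce, which leaves the metal for plastocyanin, the electron carrier of photosynthesis. The miR528 family is known mainly from monocots, where it takes part in the same group of regulations, and in rice its known targets include an ascorbate oxidase.

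The sequences of the 4 guide strands are shown because the values below are listed for each sequence and not for a family. Each is given 5′ to 3′ in DNA letters as deposited, and the capitals mark the seed, bases 2 to 8. The seed is marked to compare the sequences only, since plant miRNAs pair with their targets almost completely, as the study states.

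zma-miR398a-3p: tGTGTTCTcaggtcgcccccg

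zma-miR408a_L-1: tGCACTGCctcttccctggc

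zma-miR408a_L-1R+2_1ss21CT: tGCACTGCctcttccctggttt

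zma-miR528a-5p: tGGAAGGGgcatgcagaggag

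No seed was shared between the 3 families, while both miR408 sequences had the seed GCACTGC. All 4 guide strands began with T (U in the RNA), against 80 of the 161 known miRNAs, 49.7%. The 161 hold passenger strands as well as guide strands, so the shares are not of like sets. No share over guide strands alone was taken. The miR398 and miR528 sequences are 21 nt long. The main miR408 sequence is 20 nt long, because the annotated miR408a of 21 nt begins with a C that these molecules lacked: cTGCACTGcctcttccctggc. With the C, bases 2 to 8 would read TGCACTG. The GC content of the mature sequences ran from 54.5% for the longer miR408 form to 66.7% for miR398.

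The longer miR408 form, of 22 nt, shares its first 19 bases with the main one and then differs from it by C20T, counted from the first base of both. Against the precursor listed for the main form it differs by C20T and C22T. As a run without mismatch it was found in 0 of the listed precursors. It is listed at the coordinates of the main form but on the opposite strand, and beside a precursor of 191 letters although the listed interval spans 147, so its position of origin cannot be told from the table.

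Precursor positions are given as listed, and the genome build is not given in the sources used here. zma-miR398a-3p lies in a precursor of 140 bases on the plus strand of chr2:170163081-170163220, zma-miR408a_L-1 in one of 147 bases on the minus strand of chr8:38494457-38494603, and zma-miR528a-5p in one of 78 bases on the minus strand of chr9:153752340-153752417. No annotation of a gene, exon or intron at these positions was used here. The hairpins of miR408 and miR528, whose guides lie on opposite arms, are shown with the guide strand in capitals.

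zma-miR408a_L-1 precursor: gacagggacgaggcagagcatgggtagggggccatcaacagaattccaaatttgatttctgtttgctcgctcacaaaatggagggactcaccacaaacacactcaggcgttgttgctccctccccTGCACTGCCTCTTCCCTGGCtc

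zma-miR528a-5p precursor: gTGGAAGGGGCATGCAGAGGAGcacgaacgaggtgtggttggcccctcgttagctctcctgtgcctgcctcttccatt

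The miR528 guide takes up positions 2 to 22 of its hairpin, on the 5′ arm, and the miR408 guide positions 126 to 145, on the 3′ arm. The miR398 guide also lies on the 3′ arm, at positions 119 to 139. In the listed folds 19 bases of the miR528 guide, 19 of the miR398 guide and 16 of the main miR408 guide were paired. The sequences of miR398 and of the main miR408 form each occur in 2 different listed precursors, so a read of either cannot be assigned to 1 locus. The miR528 sequence occurs in 1 listed precursor, although RefSeq (assembly Zm-B73-REFERENCE-NAM-5.0) names the 8 loci MIR397a, MIR397b, MIR398a, MIR398b, MIR408a, MIR408b, MIR528a and MIR528b, a pair for each family.

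Expression of a miRNA was deposited as normalized expression (NE), its reads scaled to 1000000 clean reads of the library (RPM). One read was worth an NE of 0.717 and 0.879 in CFC replicates 1 and 2 and of 1.15 and 0.837 in IFC replicates 1 and 2, taking the commonest low value as 1 read. On that reading the NE values were divided by 873087 to 1394658 reads, fewest in IFC replicate 1. These totals lie well below the valid reads that the study gives for its libraries. In addition, 3 to 8 known miRNAs in a library had an NE below that of 1 read. The worth of a read is therefore an assumption, and all reads, counting intervals and limits of 0 given here for miRNAs depend on it. IFC replicate 1 also listed 42 of the 161 known miRNAs at 0, against 24 to 26 in the others, and had the lowest sum of NE over known miRNAs, 19255 against 26590 to 28278. miR2118 and miR2275, families that start phased small RNAs in anthers, served as a check for another floral tissue. Their 7 listed sequences had a summed NE of 43.4 and 19.3 in CFC and 33.2 and 49.4 in IFC. This was a small share of the known miRNAs, 0.0684% to 0.186%, but not small beside every member. In IFC the sums lay above the NE of zma-miR528a-5p, 24.6 and 33.5, and in CFC below it, 62.0 and 29.9.

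miR408 had the highest NE of the copper miRNAs, and its level varied as much between replicates as between phenotypes. In Arabidopsis and other plants it cuts the mRNAs of plantacyanin and of some laccases. zma-miR408a_L-1 had an NE of 93.2 and 53.6 in CFC replicates 1 and 2 and of 64.1 and 121 in IFC replicates 1 and 2. IFC replicate 2 was highest and CFC replicate 2 lowest, and the phenotypes overlapped. The means were 73.4 ± 28.0 in CFC and 92.7 ± 40.5 in IFC (SD, n = 2), and the larger replicate was 1.74 times the smaller in CFC and 1.89 times in IFC. Among the known miRNAs it ranked 26 to 33 by NE in each library.

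On this assumption the NE of zma-miR408a_L-1 corresponded to 130, 61, 56 and 145 reads. Exact Poisson 95% intervals, which cover counting error only, ran from 77.9 to 111 in CFC replicate 1 and from 41.0 to 68.9 in CFC replicate 2. They ran from 48.5 to 83.3 in IFC replicate 1 and from 102 to 143 in IFC replicate 2. Within each phenotype the intervals of the 2 replicates were apart. The difference between the phenotypes was 0.32 on the log2(NE + 1) scale (SE 0.80, limma adjusted p = 0.999), IFC minus CFC. Its sign rested on single libraries, being -0.08 without CFC replicate 2 and -0.14 without IFC replicate 2.

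The longer miR408 form was close to the limit of detection. zma-miR408a_L-1R+2_1ss21CT was listed at an NE of 0.717 (CFC replicate 1), 0.879 (CFC replicate 2), 0 (IFC replicate 1) and 1.81 (IFC replicate 2), with 1 read in each CFC library. It passed the filter of an NE above 1 through IFC replicate 2 only. In IFC replicate 1, 0 reads allow an NE of up to 3.44, above the value in every other library. Its direction depended on the scale: the mean NE was 0.798 in CFC and 0.907 in IFC, while the fitted difference of log2(NE + 1) was -0.10, IFC minus CFC, and 0.65 without IFC replicate 1. No direction is read from it.

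miR528 was the next by NE. Its highest value was in a CFC library, but the other CFC library lay between both IFC libraries. zma-miR528a-5p had an NE of 62.0 and 29.9 in CFC replicates 1 and 2 and of 24.6 and 33.5 in IFC replicates 1 and 2. CFC replicate 1 stood above the other 3 libraries and the phenotypes overlapped. The means were 45.9 ± 22.7 in CFC and 29.1 ± 6.26 in IFC (SD, n = 2), with a larger replicate 2.08 times the smaller in CFC and 1.36 times in IFC.

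Within a library miR528 ranked 31 among the known miRNAs in CFC replicate 1 and 42 to 45 in the other libraries. Its NE corresponded to 86.5, 34, 21.5 and 40 reads, so that 2 values were not whole, and a Poisson interval was given only for the whole ones. These were 20.7 to 41.7 for CFC replicate 2 and 23.9 to 45.6 for IFC replicate 2, and they overlapped. The fitted difference was -0.57 (SE 0.80, limma adjusted p = 0.999), IFC minus CFC. It was -0.05 without CFC replicate 1 and -1.08 without CFC replicate 2, so its size rested on the level in CFC replicate 1.

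miR398, whose known targets in Arabidopsis are Cu/Zn superoxide dismutases and their copper chaperone, had a low NE in the ovary. zma-miR398a-3p had an NE of 3.59 and 1.76 in CFC replicates 1 and 2 and of 3.44 and 6.70 in IFC replicates 1 and 2. These were 5, 2, 3 and 8 reads. The means were 2.67 ± 1.29 in CFC and 5.07 ± 2.30 in IFC (SD, n = 2), and the ranks among known miRNAs were 77 to 97. The lower IFC value lay below the higher CFC value, so the phenotypes overlapped.

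The Poisson intervals of miR398 overlapped in all libraries, from 0.213 to 6.35 in the lowest and from 2.89 to 13.2 in the highest. The fitted difference was 0.72 (SE 0.80, limma adjusted p = 0.999), IFC minus CFC, and it ranged from 0.32 to 1.11 with each library left out in turn.

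**Figure D1:**
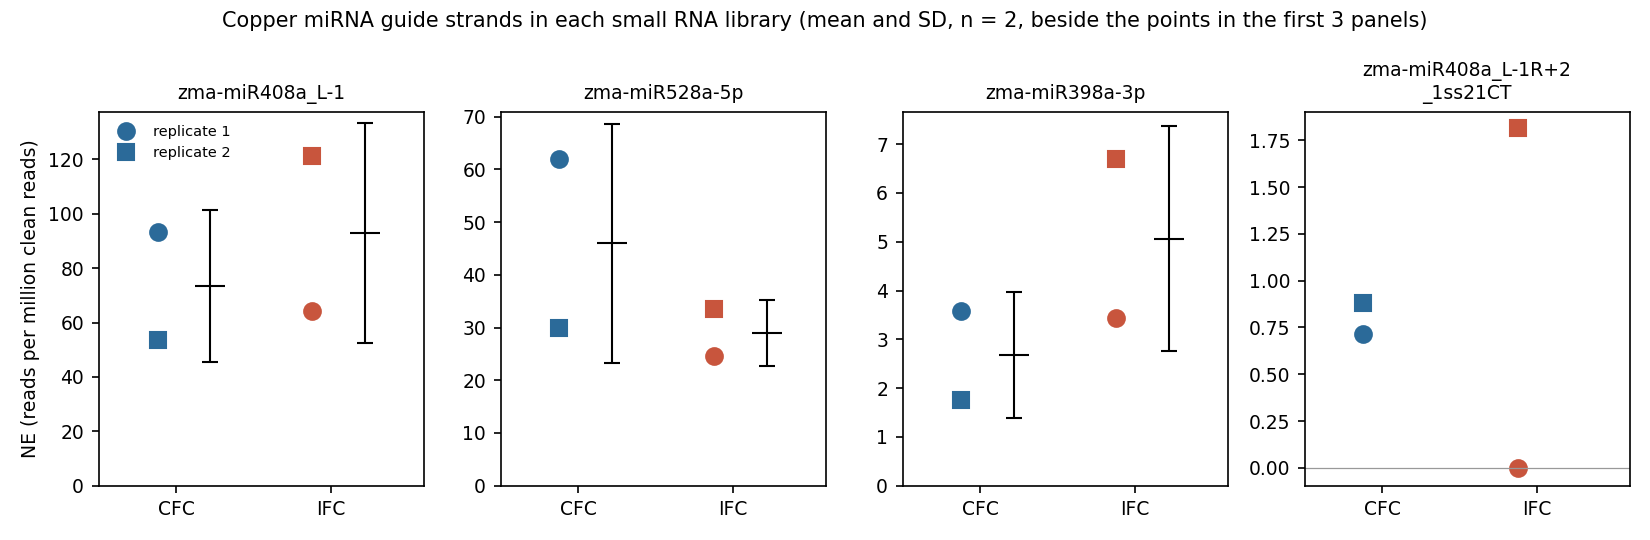
NE (RPM) of the 4 copper miRNA guide strands (y axis, a separate scale in each panel) in the CFC and IFC libraries (x axis). Circles are replicate 1 and squares replicate 2, and the black marks give the mean and SD (n = 2) for the first 3 sequences. CFC and IFC values overlap in every panel, with the highest zma-miR408a_L-1 value of 121 in IFC replicate 2 and the highest zma-miR528a-5p value of 62.0 in CFC replicate 1.

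No guide strand of miR397, which cuts laccase mRNAs in Arabidopsis and rice, was in the table. No level is given for it, and a sequence that the table does not list is not shown to be absent from the ovary. The passenger strands were scarce, with zma-miR398b-5p_R+1 at an NE of 3.51 in CFC replicate 2 and 0 in the other libraries. zma-miR408b-5p_L+1, the opposite arm of the hairpin listed for the main miR408 form, reached an NE of 3.35 in IFC replicate 2 and 0.879 in CFC replicate 2 and was listed at 0 in both others. Each passenger value was 4 reads or fewer.

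Summed over the 4 guide strands, copper miRNAs had an NE of 160 and 86.1 in CFC and of 92.2 and 163 in IFC. This was 0.567% and 0.305% of the known miRNAs in CFC replicates 1 and 2, and 0.479% and 0.614% in IFC replicates 1 and 2. The sums overlapped between phenotypes, and both sums and shares were lowest in CFC replicate 2. miR408 and miR398 had the same order of libraries, IFC replicate 2 highest, then CFC replicate 1, IFC replicate 1 and CFC replicate 2. For miR398 this order is not resolved, since it rests on 2 to 8 reads and the Poisson intervals overlapped. The summed anther miRNAs had that order too, but the 5 of them tested did not move together. Their fitted difference, IFC minus CFC, was 0.53 for zma-miR2118b and 0.69 for zma-miR2118d. It was -0.08 for zma-miR2118a, -0.53 for zma-miR2275b-3p and -1.12 for zma-miR2275b-5p. The part of anther miRNAs in the miR408 and miR398 levels was not tested. miR528 followed another order, with CFC replicate 1 highest and IFC replicate 1 lowest.

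All 4 guide strands entered the test, which compared IFC with CFC over the 145 known miRNAs whose NE exceeded 1 in any library. 0 of the 4 passed an adjusted p under 0.05, and percent called over all 145 was 0%. At an unadjusted p under 0.05, 0 of the 4 and 1 of the 145 (0.69%) were called. By the fitted difference miR408 and miR398 were higher and miR528 lower in IFC, with no direction for the longer miR408 form, and of all 145 there were 71 (49%) higher and 74 (51%) lower. The median log2 difference was 0.11 over the 4 and 0.32 over the 3 above an NE of 5 in any library, against -0.02 over all 145. That of the 4 was 0.02 with a pseudocount of 0.5, -0.06 without CFC replicate 2 and -0.14 without IFC replicate 2, so it has no settled sign. 0 of the 4 had phenotypes that did not overlap. Among the 145 there were 33 (22.8%), of which 12 (8.28%) had both IFC libraries above both CFC libraries and 21 (14.5%) had them below. With standard errors of 0.80 to 0.82 for the 4, these p-values rest mostly on a spread shared over all 145 miRNAs (13.7 prior against 2 residual degrees of freedom), and a miss of the threshold does not show equal levels.

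**Figure D2:**
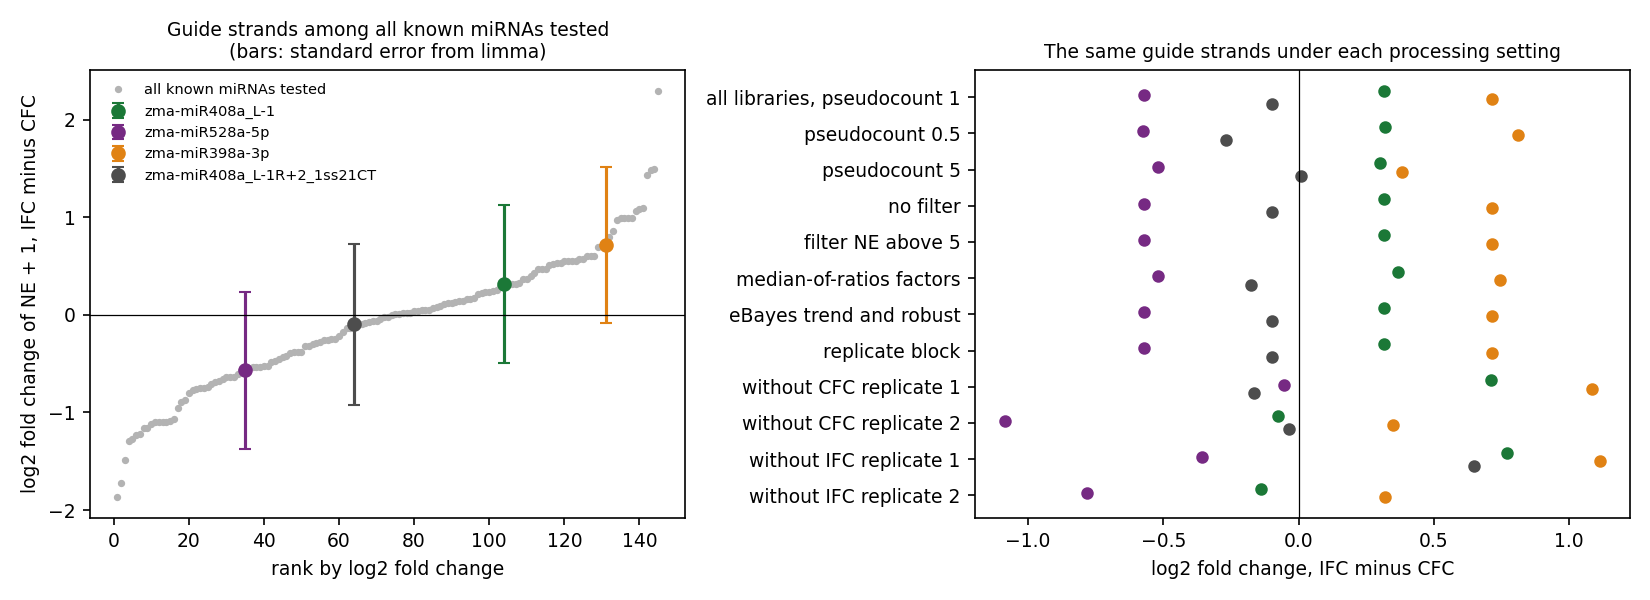
Left, the log2 fold change of NE + 1, IFC minus CFC (y axis), of the 145 known miRNAs tested, ordered by that change (x axis); coloured points are the copper guide strands with bars of 1 standard error from limma. Right, the change of the same 4 guide strands (x axis) under each processing setting (y axis). The 4 lie from -0.57 to 0.72 inside the range of all, and zma-miR408a_L-1 is below 0 without CFC replicate 2 and without IFC replicate 2.

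Ratios of the copper miRNAs within a library do not depend on the total by which that library was divided. The NE of miR408 was 1.50 and 1.79 times that of miR528 in CFC replicates 1 and 2, and 2.60 and 3.63 times in IFC replicates 1 and 2. Whether NE follows the number of molecules equally for different sequences was not tested. Both IFC values lay above both CFC values, and the ratio was 1.87 times as high in IFC, a log2 difference of 0.90 (SE 0.27). Without any 1 library the difference ranged from 0.67 to 1.14.

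The ratio of miR408 to miR398 was 26.0 and 30.5 in CFC and 18.7 and 18.1 in IFC, with a log2 difference of -0.61 (SE 0.12). The ratio of miR398 to miR528 was 0.0578 and 0.0588 in CFC and 0.140 and 0.200 in IFC, with a log2 difference of 1.52 (SE 0.26). Both of these rest on the 2 to 8 reads of miR398, whose wide counting error the SE does not hold.

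For each of the 3 pairs compared the exact two-sided permutation p was 0.333, the smallest that 2 against 2 libraries allow, and 0.333 after Benjamini-Hochberg adjustment. The design can therefore not reach 0.05 for a ratio. All 3 ratios had phenotypes that did not overlap, and so had 1211 of the 5356 ratios between known miRNAs above 0 in every library, 22.6%. The 3 pairs share their members, so they are not 3 separate results.

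**Figure D3:**
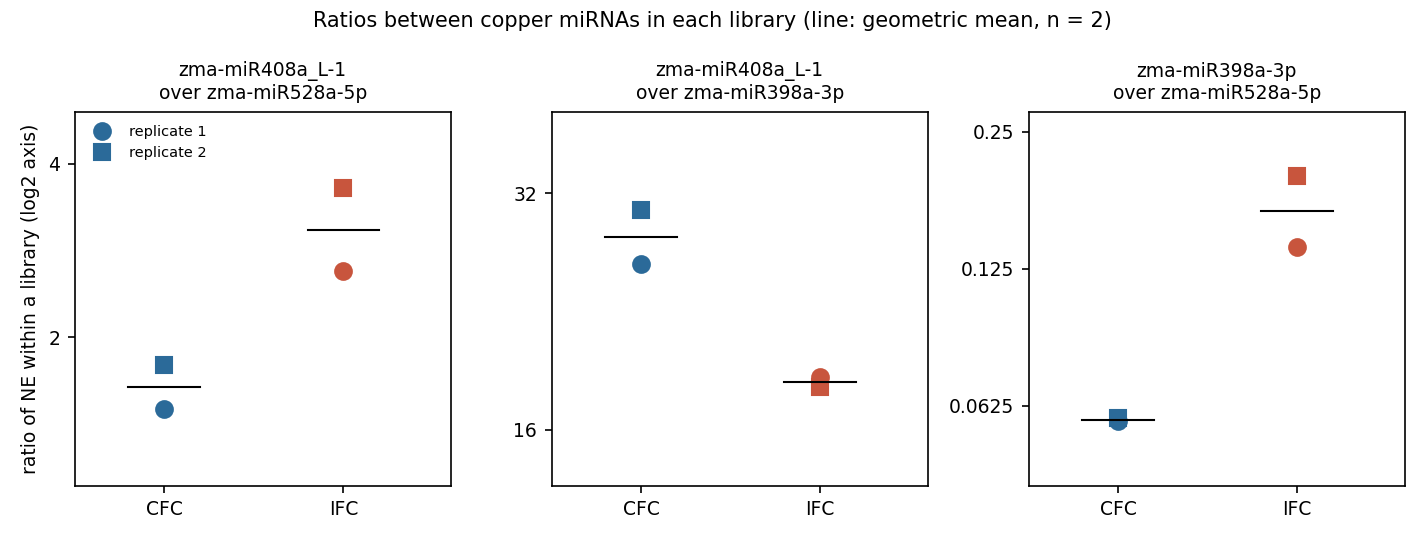
Ratio of NE between copper miRNAs within each library (y axis, log2 scale, a separate range in each panel) in CFC and IFC (x axis). Circles are replicate 1, squares replicate 2 and lines the geometric mean of the 2 replicates. The ratio of miR408 to miR528 is 1.50 and 1.79 in CFC against 2.60 and 3.63 in IFC.

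The known miRNAs most like miR408 and miR528 were found among the 67 others with an NE above 5 in every library, by the Euclidean distance of log2(NE + 1), centred on each miRNA's mean over the 4 libraries. A small distance describes these 4 libraries only. Nearest to zma-miR408a_L-1 were zma-miR164d-3p_R+1, at a distance of 0.15 and with NE of 11.5 and 6.15 in CFC and 6.87 and 13.4 in IFC, and zma-miR169a-3p_L+4R-1, also at 0.15, with NE of 22.6 and 11.9 in CFC and 13.2 and 28.9 in IFC. The third was the anther miRNA zma-miR2118b, at 0.32 and with NE of 17.9 and 8.79 in CFC and 14.9 and 23.4 in IFC. The median distance was 1.26, and all of these had IFC replicate 2 highest and CFC replicate 2 lowest, as miR408 did.

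Nearest to zma-miR528a-5p was zma-miR166j-3p, at a distance of 0.28 and with NE of 1093 and 584 in CFC and 496 and 520 in IFC. zma-miR160a-5p followed at 0.32, with NE of 212 and 76.7 in CFC and 72.0 and 107 in IFC, and zma-miR167e-5p at 0.45. All of these were highest in CFC replicate 1, and the median distance was 1.25. miR408 and miR528 lay 0.96 from each other.

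In the degradome 1 gene was listed as cut at a copper miRNA site, the plantacyanin gene GRMZM2G004160, with zma-miR528a-5p as the miRNA. Plantacyanin is a small blue copper protein of the cell wall. RefSeq holds this gene as LOC100284336. The 2 rows were its transcripts GRMZM2G004160_T01 and GRMZM2G004160_T02, with the same values. The listed site ran from position 172 to 191 of the transcript, 20 bases against a miRNA of 21 nt, and the cut was at 183, 8 bases before the end of the range. Its sequence was not used here, since no transcript sequence was at hand.

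The signal at this site was that of 1 tag. In CFC each transcript had 30.0 TPB, a tag number relative to library size. The sum, 59.9 TPB, was the worth of 1 tag in that library. The exact Poisson 95% interval of 1 tag ran from 1.52 to 334 TPB and covers counting error only. The IFC library had 0 TPB, which allows up to 177 TPB (3 tags). With 1 library a phenotype there is no replicate, and the CFC and IFC signals were not distinguishable at this depth.

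The plantacyanin site stood at the weak end of the table's other measures. Its peak category was 4, the class of single reads, which held 58 of the 471 rows in CFC (12.3%) while 251 (53.3%) were in category 0, the single highest peak of a transcript. Its alignment score, a sum of penalties for mismatches, was 4, the highest value in the table and shared by 151 rows (32.1%) against a median of 3. The p-value deposited from CleaveLand for the site was 0.964, and 36 of the 421 rows with such a value in CFC were higher. Of the 421 rows with a CFC tag, 81 had a TPB at or below 30.0, and the median was 188.

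Counted from the end of the listed range, the cut lay 1 base from the commonest position. It was 8 bases before the end of the listed range in these and 21 further rows, 23 in all, against 9 bases in 392 rows and 10 in 56. All 23 were among the 76 rows whose range was 1 base shorter than the miRNA. The pairing of miRNA and site was not examined, so this count does not show a cut displaced along the miRNA.

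**Figure D4:**
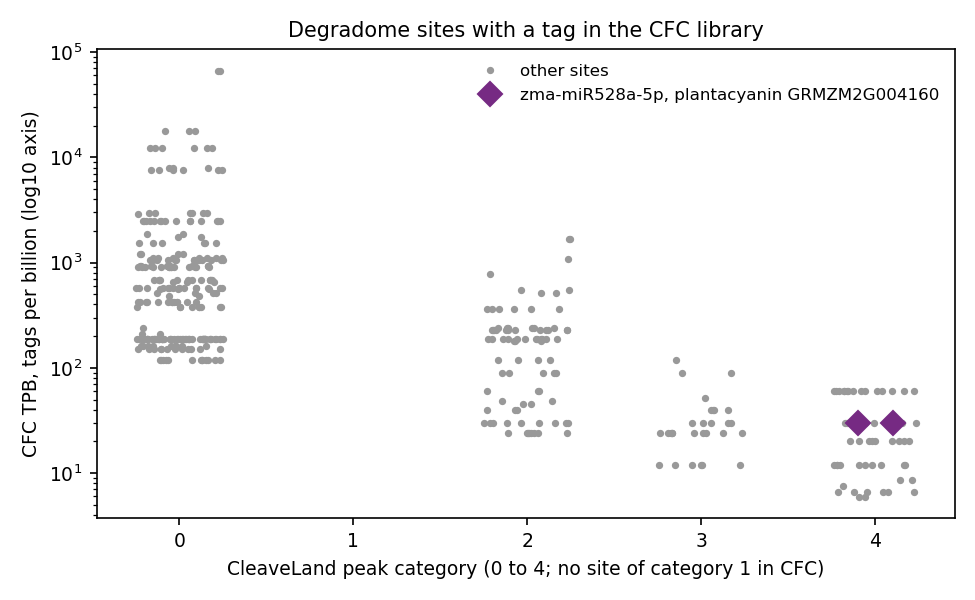
TPB (y axis, log10 scale) of the 421 rows with a tag in the CFC degradome library, by CleaveLand peak category (x axis, points spread sideways for visibility). Purple diamonds are the 2 plantacyanin transcripts listed for zma-miR528a-5p, both at 30.0 TPB in category 4, and grey points are the other rows.

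The annotations of the degradome table were searched for 14 words for copper proteins, among them laccase, superoxide dismutase, copper chaperone, plastocyanin and ascorbate oxidase. Plantacyanin was the only word found, in 2 rows, which are those of zma-miR528a-5p. Laccase, superoxide dismutase and copper chaperone, words for known targets of miR397, miR398 or miR408, had 0 rows. Plantacyanin is a known target class of miR408 too, but its rows were listed for miR528 only. The families miR397, miR398 and miR408 had 0 rows by name. The table of targets of differentially expressed miRNAs held 0 copper miRNA rows among 76. It covers only known miRNAs that the study called differential, and none of those is a copper miRNA. That 0 was therefore fixed in advance and says nothing on cutting. The degradome table lists sites that passed the target search, so a missing row does not show that a laccase or superoxide dismutase mRNA was uncut.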

How the data were processed

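Small RNA of 4 ovary samples and degradome tags of 2 were analysed, grouped by the phenotype in the labels. The authors removed adapters, short and junk reads, structural RNAs, repeats and reads of exons, matched the rest to maize precursors and deposited NE, which is RPM of clean reads. No raw counts were used: 66.3% to 73.8% of NE values under 50 were whole multiples of the value taken as 1 read (tolerance 0.012 reads), so reads are given only beside single members. The authors also deposited the GC content of each precursor in percent. For the degradome, CleaveLand was run by the authors on tags of each pooled library, and the deposited signal is TPB, tags scaled to raw reads, beside a p-value, a category and an alignment score for each site. Precursors were placed on the genome by the authors, with a build not given in the sources used here.

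The main test was limma 3.58.1 (R 4.3.3; lmFit, eBayes, IFC minus CFC, two-sided, no block) on log2(NE + 1) of every known miRNA whose NE exceeded 1 in any library, with Benjamini-Hochberg adjustment over all 145 of them. The fit had 13.7 prior and 2 residual degrees of freedom. A one-tailed test for each miRNA, as the study used, was not run. Ratios were tested by exact permutation. Intervals and limits of 0 (3 counts) cover counting error only. Other values came from Python 3.11.15, numpy 2.4.6, scipy 1.17.1 and pandas 2.3.3, and figures from matplotlib 3.10.9.

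Named in the text are all guide strands of the 4 families, their target rows and passenger strands, and the 3 known miRNAs nearest to each member above an NE of 5 in every library. The members, word and marker lists were chosen with earlier results of these data known. Alternatives were a pseudocount of 0.5 or 5, all miRNAs unfiltered or those above an NE of 5, median-of-ratios factors, a robust fit with a trend, the replicate number as a block, and each library left out. For ratios they were NE + 1 and the sum of both miR408 forms, and for the degradome the TPB summed over transcripts. Whether replicates are separate plants, or equal replicate numbers the same ear row, is not stated. The quantitative PCR, the hormones and the miRNA candidates were not analysed here.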

Additional observations from a re-analysis of the deposited data

How the results depend on the processing

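0 known miRNAs passed the adjusted threshold in the limma fit under any of the 11 alternatives, with 1 of 145 at an unadjusted p under 0.05 in the fit reported and 0 to 24 in the others. The 24 came without CFC replicate 2 (of 143 tested), where the lowest adjusted p was 0.262. zma-miR398a-3p and zma-miR528a-5p kept their direction in 11 of 11 alternatives, zma-miR408a_L-1 in 9 of 11 and the longer miR408 form in 7 of 9. The longer form turned to 0.0098 with a pseudocount of 5 and had no value with the filter at an NE of 5 or without IFC replicate 2, since it then passed no filter. With 1 library left out, where the lone library is assumed to vary like the others, the log2 difference ranged from 0.32 to 1.11 for zma-miR398a-3p, from -0.14 to 0.77 for zma-miR408a_L-1 (-0.08 without CFC replicate 2), from -0.16 to 0.65 for the longer form and from -1.08 to -0.05 for zma-miR528a-5p. Their median ranged from -0.14 to 0.71, and was 0.02 with a pseudocount of 0.5 and 0.32 with the filter at an NE of 5. The ratio differences ranged from 0.67 to 1.14 for miR408 over miR528, from -0.73 to -0.50 for miR408 over miR398 and from 1.26 to 1.78 for miR398 over miR528. The cause of these shifts was not tested.

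The replicate block left the differences at 0.32, -0.57 and 0.72 for miR408, miR528 and miR398, with 0 calls, 3 of 145 at an unadjusted p under 0.05 and a lowest adjusted p of 0.573. Replicate differences correlated at 0.25 across miRNAs between CFC and IFC, and IFC and CFC ovaries came from the same ear, but whether equal replicate numbers mark the same ear row is not stated. Counting error is widest for miR398, the longer miR408 form and the plantacyanin site, which rest on 8 reads or fewer.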
